A study of Saccharomyces cerevisiae with 25 samples.

Results

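The ccr4 deletion strain of budding yeast (Saccharomyces cerevisiae) was compared with the wild type 30 min after the glucose in the medium had run out. The comparison rests on 4 arrays of the 25 in the series, the 2 titled as ccr4 after glucose depletion and the 2 titled as wild type after glucose depletion, and covers 5656 genes. Both strains had been grown in glucose-rich medium, and total RNA was hybridised to Affymetrix arrays that carry 9275 probe sets. Another 4 arrays, 2 per strain, hold the same strains in exponential phase. The ccr4 strain is described as a null strain, and neither the parent strain nor the marker used for the deletion is given in the sources used here. Each sample was prepared 2 times independently according to the labels, so the p-values reflect the spread between separate preparations. That spread was pooled over all groups of the series, not taken from these 4 arrays alone. Strains lacking caf1 (1 array, since the submitters discarded another as problematic) or not2 (2 arrays) after depletion served for direct comparison. For a strain lacking not4 (2 arrays after depletion), list medians against the wild type are given beside those of the other strains.

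Ccr4 is a deadenylase, an enzyme that shortens the poly(A) tail of mRNAs, which is usually the first step of their decay. It works within the Ccr4-Not complex, together with the second deadenylase Caf1 (gene POP2), the scaffold Not1 (gene CDC39) and the Not module. In wild-type yeast, loss of glucose ends fermentative growth, lowers the transcripts for making ribosomes, and raises the transcripts for respiration, for gluconeogenesis and for stress protection. Which of these levels differ in cells without Ccr4 is the question that the comparison addresses.

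All levels below are the deposited log2 values, and n = 2 arrays per group unless another n is given. A difference is the mean of the ccr4 arrays minus the mean of the wild-type arrays, ± its standard error (SE) from limma. A gene is called higher or lower where the limma p-value, adjusted by Benjamini-Hochberg over all genes of that comparison, is under 0.05. Array values are relative levels in a total RNA sample, and fewer cells of one kind cannot be told apart from less RNA per cell.

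The deleted gene was low in the arrays labelled ccr4. CCR4 read 8.20 and 8.25 in the wild type after depletion and 3.82 and 3.56 in the ccr4 strain, a difference of -4.54 ± 0.45 (adjusted p = 1.32e-06). The groups lay far apart, and the ccr4 readings were below the lower quartile of those arrays, which averaged 4.74. Genes beside CCR4 on chromosome I were examined as well. FUN26, a nucleoside transporter gene, read 7.46 and 7.40 in the wild type and 7.48 and 7.82 in the ccr4 strain, and the difference of 0.22 ± 0.31 did not pass the test (adjusted p = 0.642). ATS1, on the other side, read 8.96 and 8.63 in the wild type and 7.24 and 7.38 in the ccr4 strain. Its difference of -1.49 ± 0.44 passed the test (adjusted p = 0.0183), but the adjusted p lay between 0.0558 and 0.125 without one of the 4 arrays and was 0.0531 in a fit of the depletion arrays alone.

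TRP1, a tryptophan biosynthesis gene that is often used as a marker in strain construction, differed more than any other gene named here. It read 2.73 and 3.14 in the wild type and 7.83 and 7.94 in the ccr4 strain, a difference of 4.95 ± 0.41 (adjusted p = 2.35e-07). The ccr4 strain therefore differed from the wild type both in CCR4 and in TRP1, and the part of each in the differences below cannot be told apart. Of the other marker genes, URA3 (-0.17), HIS3 (0.32), LEU2 (0.55), LYS2 (0.33), ADE2 (0.73) and MET17 (0.01) did not pass the test.

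Among the other subunits of the complex, 3 passed the test in the upward direction. NOT5, a subunit of the Not module, read 6.11 and 6.09 in the wild type and 7.0 and 7.28 in the ccr4 strain (1.04 ± 0.31, adjusted p = 0.0191). CAF40 read 7.76 and 7.60 against 8.61 and 8.58 (0.92 ± 0.33, adjusted p = 0.0429). POP2, which encodes the other deadenylase, read 7.71 and 7.61 against 8.27 and 8.48 (0.72 ± 0.26, adjusted p = 0.0486). None of the 3 calls held when any one of the 4 arrays was left out, with adjusted p from 0.0549 to 0.271, and those of CAF40 and POP2 were lost as well with each array centred on its median (0.0794 and 0.0895), in a fit of the depletion arrays alone (0.0956 and 0.0831) and with the replicate number as a block (0.0522 and 0.0613). The differences of CDC39 (-0.79), CDC36 (0.22), NOT3 (0.43), MOT2 (0.43) and CAF130 (-0.62) did not pass the test. MOT2 encodes the ubiquitin ligase Not4 and CDC36 encodes Not2.

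**Figure D1:**
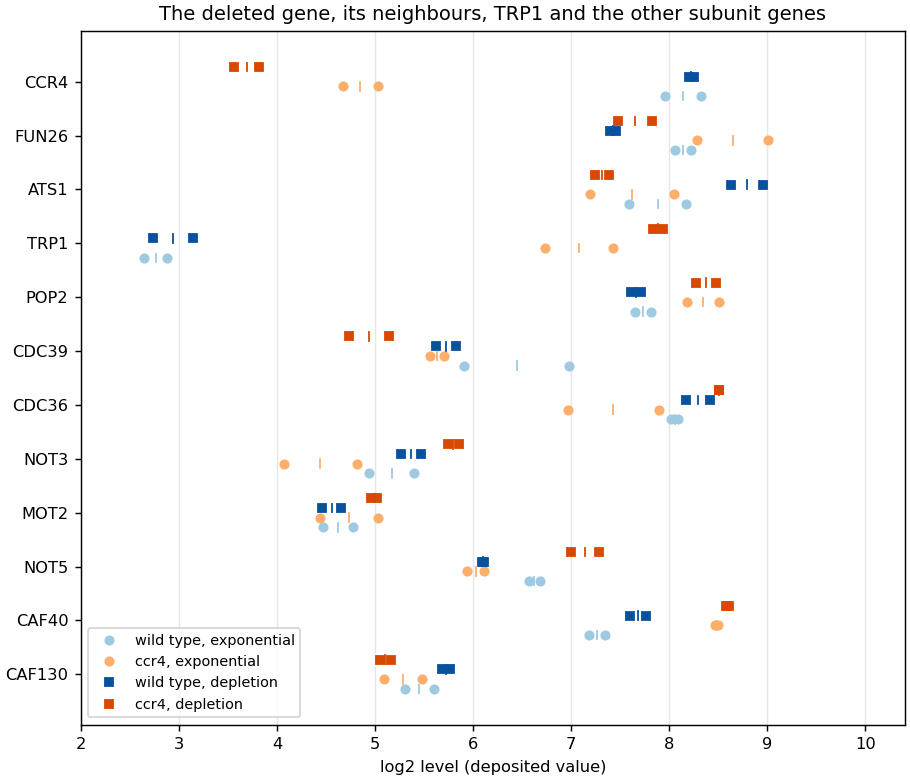
Log2 levels (x axis) of CCR4, its neighbours FUN26 and ATS1, TRP1 and the other subunit genes on the 8 wild-type and ccr4 arrays. Points are arrays and short vertical lines are group means. CCR4 fell to 3.82 and 3.56 in the ccr4 arrays after depletion, TRP1 stood at 7.83 and 7.94 there against 2.73 and 3.14 in the wild type, and the other subunit genes differed by at most 1.04.

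Depletion arrays of the 2 strains differed widely. Of the 5656 genes tested, 1530 were called (27.1%), 861 higher (15.2%) and 669 lower (11.8%) in the ccr4 strain. At least 1 log2 unit separated the strains in 638 of the genes called higher and 537 of those called lower, and at least 2 units in 79 and 115. The median difference over all genes was 0.06, and the median SE was 0.33. Replicate arrays lay close together, with a median absolute difference of 0.14 between the ccr4 arrays and 0.20 between the wild-type arrays. Over all genes, 78.8% had wild-type and ccr4 arrays that did not overlap, so non-overlap alone set few genes apart. Of the 1530 called genes, 1529 did not overlap, and the 15 highest and 15 lowest genes were taken from these only. Where groups are described as separate below, this therefore adds nothing to the call. The balance of calls moved with the scaling: with each array centred on its median, the median over all genes shifted by -0.12, and 690 genes were higher and 820 lower, so that 45.7% of the calls were higher in place of 56.3%. Without one array the count was 779 (ccr4 replicate 1), 512 (ccr4 replicate 2), 632 (wild-type replicate 1) or 767 (wild-type replicate 2). In the lists below, counts without one array are given in this same order.

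The gene lists moved apart by function. Genes for using non-fermentable carbon and genes of the general stress response were lower in the ccr4 strain, and genes for making ribosomes, genes of the G1/S transition and genes of the mating response were higher. The plot of 33 lists shows each measured member.

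**Figure D2:**
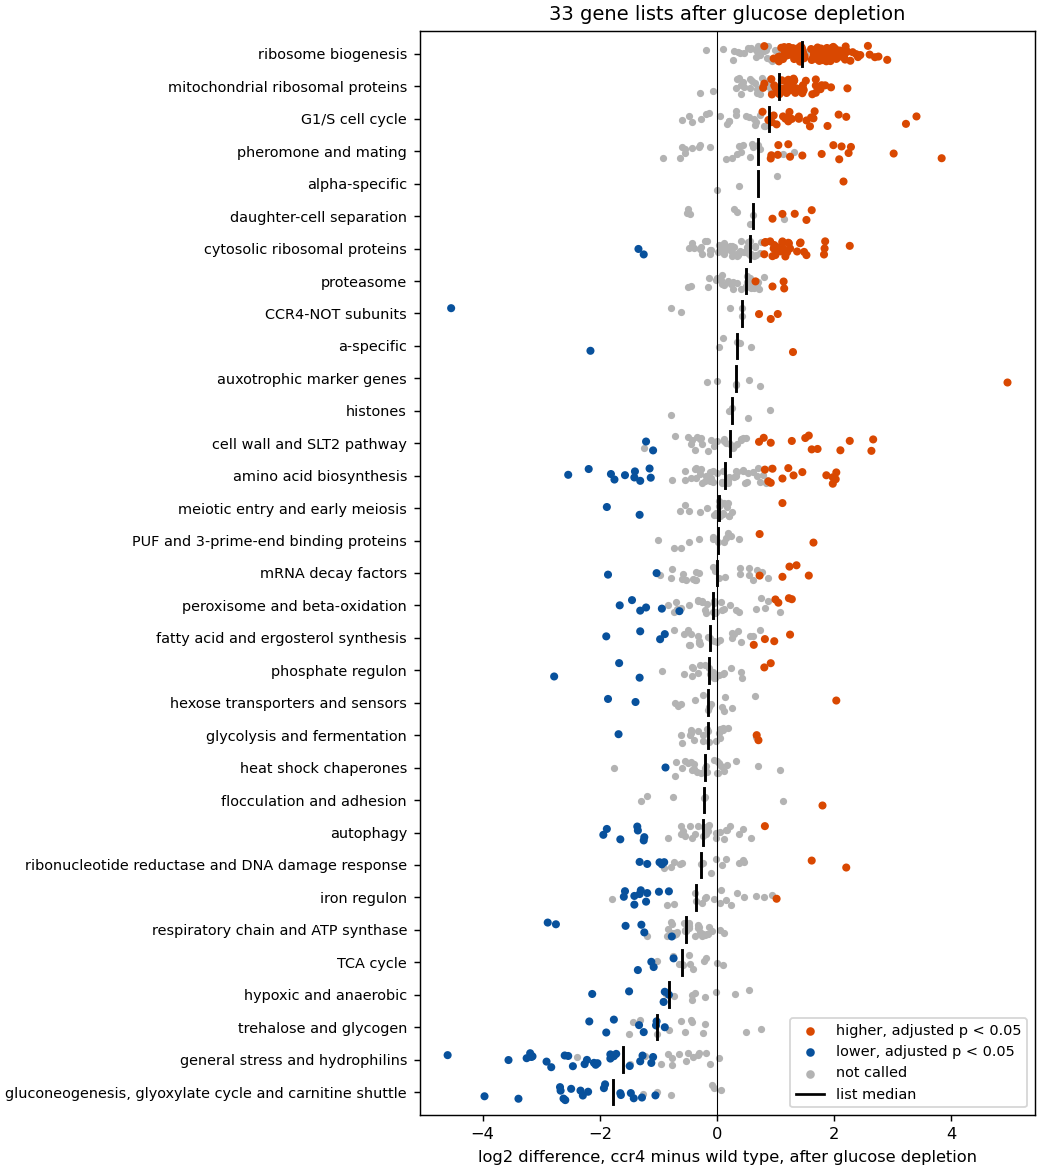
Log2 difference, ccr4 minus wild type after glucose depletion (x axis), of each measured member of 33 gene lists. Points are genes, coloured where called higher or lower at an adjusted p under 0.05, and the vertical bars are list medians, which run from 1.45 for ribosome biogenesis to -1.78 for gluconeogenesis, the glyoxylate cycle and the carnitine shuttle.

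Genes of gluconeogenesis, the glyoxylate cycle and the carnitine shuttle, which let cells build sugars from acetyl units when glucose is gone, formed the list with the lowest median. Of 24 measured members, 18 fell and 0 rose against the wild type, with a median difference of -1.78 beside 0.06 over all genes. The count of lower members was 14, 13, 13 and 14 without one array. In the wild type the list median stood at 4.79 and 5.07 in exponential phase and at 7.5 and 7.47 after depletion, whereas in the ccr4 strain it stood at 5.39 and 4.95 and then at 5.99 and 5.55. The ccr4 depletion arrays thus lay nearer to the exponential arrays than to the wild-type depletion arrays for this list.

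ICL1 encodes isocitrate lyase, the first enzyme of the glyoxylate cycle. It read 9.5 and 9.21 in the wild type and 5.62 and 5.16 in the ccr4 strain, a difference of -3.97 ± 0.51 (adjusted p = 2.58e-05). Its ccr4 levels after depletion were close to the 4.84 and 4.94 of the wild type in exponential phase. MLS1, encoding malate synthase, the other enzyme particular to that cycle, read 7.57 and 7.45 against 4.97 and 4.71 (-2.67 ± 0.45, adjusted p = 0.000314). CIT2, the peroxisomal citrate synthase, read 9.24 and 9.83 against 6.80 and 6.92 (-2.68 ± 0.35, adjusted p = 3.53e-05). Both groups were separate for each of these enzymes. YAT2, a carnitine acetyltransferase that moves acetyl units into mitochondria, read 7.23 and 7.42 against 4.04 and 3.83 (-3.39 ± 0.39, adjusted p = 1.03e-05). IDP2, the cytosolic NADP-dependent isocitrate dehydrogenase, read 8.66 and 8.45 against 5.99 and 5.86 (-2.62 ± 0.43, adjusted p = 0.000279).

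Well-known members outside the naming rule were picked after their values were seen. PCK1, phosphoenolpyruvate carboxykinase, the committed enzyme of gluconeogenesis, read 9.33 and 9.18 in the wild type and 6.88 and 6.65 in the ccr4 strain (-2.49 ± 0.53, adjusted p = 0.00202). FBP1, fructose bisphosphatase, read 7.32 and 6.89 against 5.14 and 5.22 (-1.93 ± 0.52, adjusted p = 0.0106), a call that was lost without ccr4 replicate 1 (adjusted p = 0.0603), ccr4 replicate 2 (0.0652) or wild-type replicate 1 (0.0928). JEN1, the lactate and pyruvate permease, read 8.58 and 8.28 against 6.34 and 5.94 (-2.29 ± 0.47, adjusted p = 0.00173). The 2 activators of these genes were lower at the transcript level too. CAT8, a zinc cluster activator, read 6.76 and 6.55 against 5.04 and 4.96 (-1.65 ± 0.32, adjusted p = 0.00102). ADR1, a zinc finger activator, read 6.98 and 6.95 against 5.81 and 5.57 (-1.28 ± 0.39, adjusted p = 0.02), and lost its call without any one of the 4 arrays (adjusted p from 0.0641 to 0.141).

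General stress genes, among them the hydrophilins, small hydrophilic proteins made under water loss, were also lower. Of 42 measured members, 25 fell and 0 rose, with a median difference of -1.61, and 22, 16, 19 and 20 were lower without one array. The list median of the wild type stood at 5.56 and 6.47 in exponential phase and at 9.84 and 9.90 after depletion, and that of the ccr4 strain at 5.73 and 5.77 and then at 8.59 and 8.50. Both strains raised the list, and the ccr4 arrays after depletion lay more than 1 log2 unit below the wild-type ones.

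SIP18, a hydrophilin, had the lowest difference of all genes tested. It read 9.64 and 9.43 in the wild type and 5.28 and 4.58 in the ccr4 strain, a difference of -4.60 ± 0.31 (adjusted p = 1.19e-08). GRE1, a hydrophilin as well, read 9.26 and 8.95 against 5.97 and 5.13 (-3.56 ± 0.34, adjusted p = 8.12e-07). HBT1, which acts in shaping the mating projection, read 8.70 and 9.28 against 5.85 and 5.63 (-3.25 ± 0.47, adjusted p = 9.55e-05). SPG1 and SPG4 are known from the survival of cells in stationary phase. SPG1 read 7.41 and 7.26 in the wild type and 4.21 and 4.07 in the ccr4 strain (-3.19 ± 0.29, adjusted p = 3.81e-07). SPG4 read 10.22 and 10.01 against 7.98 and 6.59 (-2.83 ± 0.58, adjusted p = 0.00165), and its adjusted p was 0.0535 without ccr4 replicate 2. The ccr4 arrays of SPG4 were unusually far apart, yet both lay below the wild-type ones. CTT1, the cytosolic catalase, picked after its values were seen, read 9.20 and 9.03 against 6.28 and 5.61 (-3.17 ± 0.54, adjusted p = 0.000376).

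Storage carbohydrate genes were lower with less support. Of 21 measured members of the trehalose and glycogen list, 8 fell and 0 rose, and the median difference was -1.02. The number of lower members was 3, 2, 2 and 4 without one array. GLG1, a glycogenin that primes glycogen synthesis, read 6.49 and 6.15 in the wild type and 4.26 and 4.02 in the ccr4 strain (-2.18 ± 0.37, adjusted p = 0.000381). GSY2, the main glycogen synthase, read 10.63 and 10.47 against 8.76 and 8.81 (-1.76 ± 0.41, adjusted p = 0.00407). Both genes had separate groups and kept their calls without each of the 4 arrays. TPS1, a trehalose phosphate synthase subunit picked after its values were seen, read 10.53 and 10.71 against 9.77 and 9.68 (-0.89 ± 0.30, adjusted p = 0.034), and its adjusted p was between 0.1 and 0.169 without one array and 0.0794 after quantile normalization.

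Respiratory genes differed less than the genes of carbon use. Of 38 measured members of the respiratory chain and ATP synthase list, 6 fell and 0 rose, a share of lower calls near that of all genes, and 3 were lower without any one array. The list median difference was -0.53, and 36 of the 38 members had a difference below 0. The wild-type list medians rose from 7.80 and 7.96 to 10.22 and 10.35 and the ccr4 medians from 8.07 and 8.06 to 9.83 and 9.78. NDE2, a mitochondrial external NADH dehydrogenase, read 8.23 and 7.87 in the wild type and 5.19 and 5.14 in the ccr4 strain (-2.89 ± 0.38, adjusted p = 3.44e-05). CYC1, the main cytochrome c, read 9.73 and 9.21 against 6.78 and 6.66 (-2.75 ± 0.43, adjusted p = 0.000192). These were the lowest members of the list, and the groups did not overlap for either.

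In the TCA cycle list, 4 of 16 measured members fell and 0 rose (3, 1, 2 and 2 without one array), with a median difference of -0.59. KGD1, a subunit of alpha-ketoglutarate dehydrogenase, read 11.00 and 10.78 in the wild type and 9.61 and 9.46 in the ccr4 strain (-1.35 ± 0.31, adjusted p = 0.00356). Lower calls made up 11.8% of all genes, a smaller share than the 4 of 16 found with all arrays in the fit. KGD1 was the lowest member of the TCA cycle list, and the next 2 genes are not members of it. COX5B, the alternative form of a cytochrome c oxidase subunit, read 6.98 and 7.45 against 5.03 and 5.13 (-2.13 ± 0.49, adjusted p = 0.00386). PYK2, the pyruvate kinase used when glycolytic flux is low, read 7.73 and 7.65 against 6.08 and 5.94 (-1.68 ± 0.40, adjusted p = 0.00436). The shares of hexose transporters and sensors called were near or below those over all genes (15.2% higher and 11.8% lower). The 2 named here differed in opposite directions. HXT5, the transporter of slowly growing cells, read 9.23 and 8.80 in the wild type and 7.28 and 7.03 in the ccr4 strain (-1.86 ± 0.31, adjusted p = 0.000295). HXT2, a high-affinity transporter, read 6.38 and 6.44 against 8.53 and 8.37 (2.04 ± 0.40, adjusted p = 0.00118). Over the 16 measured hexose transporters and sensors, 1 rose and 2 fell (1 lower without any one array).

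Ribosome biogenesis genes, which encode the factors that process rRNA and assemble ribosomes, formed the list with the highest median. Of 122 measured members, 89 rose and 0 fell, with a median difference of 1.45, and 63, 49, 55 and 58 were higher without one array. The list median of the wild type stood at 6.91 and 6.13 in exponential phase and at 4.78 and 4.83 after depletion. That of the ccr4 strain stood at 6.04 and 6.32 in exponential phase and at 6.29 and 6.35 after depletion. After depletion, the wild type had thus dropped below both of its exponential arrays, and the ccr4 list median lay within the range of the exponential arrays of both strains.

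**Figure D3:**
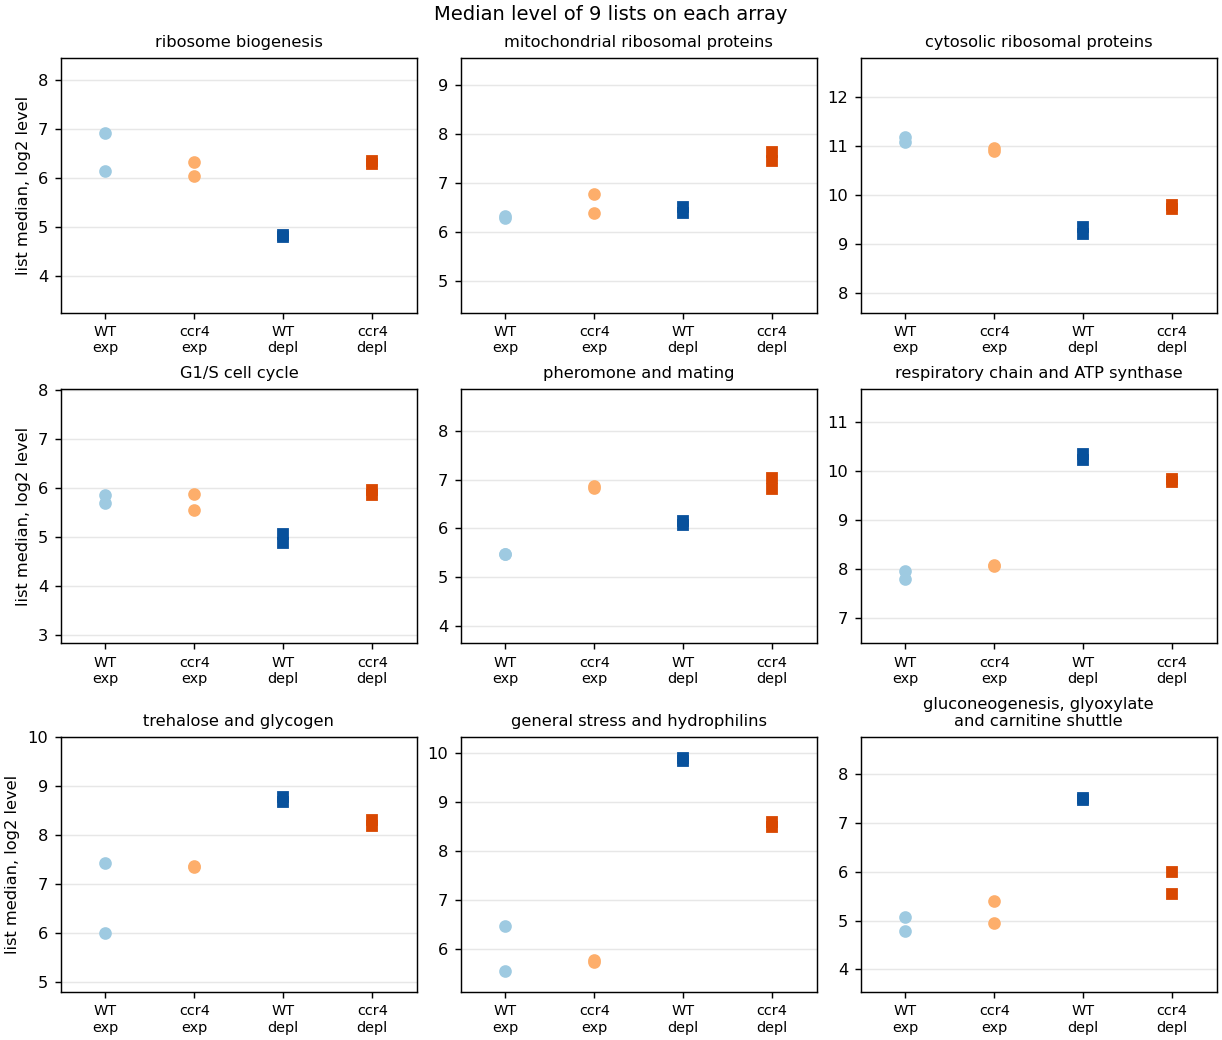
Median log2 level (y axis) of 9 gene lists on each wild-type (WT) and ccr4 array in exponential phase (exp) and after glucose depletion (depl). Points are arrays and every panel spans the same number of log2 units. The ribosome biogenesis median is 4.78 and 4.83 in the wild type after depletion and 6.29 and 6.35 in the ccr4 strain, and the list of gluconeogenesis, glyoxylate cycle and carnitine shuttle genes is at 7.5 and 7.47 against 5.99 and 5.55.

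SOF1, a part of the machinery that processes small subunit rRNA, was the highest member. It read 4.25 and 4.24 in the wild type and 7.21 and 7.08 in the ccr4 strain, a difference of 2.91 ± 0.46 (adjusted p = 0.000219). RRP1, a large subunit processing factor, read 3.29 and 3.24 against 5.87 and 6.17 (2.76 ± 0.46, adjusted p = 0.000335). EBP2, another large subunit factor, read 4.04 and 3.80 against 6.53 and 6.71 (2.70 ± 0.41, adjusted p = 0.000163). The wild-type readings of all 3 lay below the lower quartile of those arrays, which averaged 4.66. REI1, a late factor of large subunit assembly in the cytoplasm, read 4.38 and 4.67 against 6.93 and 7.35 (2.61 ± 0.41, adjusted p = 0.000192). Of all 861 genes called higher, 267 had a wild-type mean under that quartile, and of the 669 called lower, 191 had a ccr4 mean under the quartile of the ccr4 arrays, so that levels near background could understate the size of these differences.

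Ribosomal proteins rose less uniformly. Of 81 measured cytosolic ribosomal protein genes, 29 rose and 2 fell, with a median difference of 0.56. Without one array, 17, 10, 18 and 12 were higher. With less specific probe sets left out, 15 of the fewer members then measured were higher, with a median of 0.41, and in a fit of the depletion arrays alone 17 were higher. Both strains lowered the list on depletion, from medians of 11.20 and 11.09 to 9.36 and 9.21 in the wild type and from 10.91 and 10.97 to 9.72 and 9.80 in the ccr4 strain. RPL9A read 5.07 and 5.21 in the wild type and 7.26 and 7.55 in the ccr4 strain (2.27 ± 0.45, adjusted p = 0.00122). RPL24A read 8.72 and 8.64 against 10.54 and 10.48 (1.84 ± 0.36, adjusted p = 0.00128). RPS26B read 5.90 and 5.85 against 7.56 and 7.90 (1.85 ± 0.38, adjusted p = 0.00167). Most of these proteins have a near-identical paralog, and probe sets of such pairs can share signal. RPS9B is one such case, on a probe set named for a gene family, and read 7.01 and 6.90 against 8.80 and 8.78 (1.83 ± 0.29, adjusted p = 0.000192), while its second probe set differed by 1.78.

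Mitochondrial ribosomal proteins were higher in the ccr4 strain as well. Of 67 measured members, 41 rose and 0 fell, with a median difference of 1.06 (22, 11, 17 and 16 higher without one array). Their wild-type medians were alike in exponential phase (6.28 and 6.33) and after depletion (6.51 and 6.38), and the ccr4 medians were 6.39 and 6.78 in exponential phase and 7.45 and 7.63 after depletion. The strain effect after depletion minus that in exponential phase was called upward in 10 of the 67 members and downward in 0. That share was near the 11.6% upward over all genes, with a list median of 0.85 beside 0.14 over all genes. MRPL32 read 5.56 and 5.75 in the wild type and 7.70 and 8.07 in the ccr4 strain (2.23 ± 0.49, adjusted p = 0.00253). MRPL27 read 6.68 and 6.64 against 8.60 and 8.62 (1.95 ± 0.33, adjusted p = 0.000314). Both encode proteins of the large mitochondrial subunit, as do the next 2 members by size. MRPL7 read 4.43 and 5.37 against 6.72 and 6.79 (1.85 ± 0.44, adjusted p = 0.00458, and 0.0909 without wild-type replicate 1), and MRPL15 read 6.03 and 5.63 against 7.45 and 7.78 (1.79 ± 0.39, adjusted p = 0.00243).

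Genes of the G1/S transition, when cells commit to division and begin DNA replication, were higher in the ccr4 strain. Of 44 measured members, 23 rose and 0 fell, with a median difference of 0.89, and 15, 15, 17 and 15 were higher without one array. Wild-type list medians went from 5.86 and 5.68 in exponential phase to 5.05 and 4.88 after depletion, and the ccr4 medians from 5.54 and 5.88 to 5.85 and 5.96. The list therefore stood near its exponential level in the ccr4 strain after depletion.

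PCL1 and PCL2 encode cyclins of the kinase Pho85. PCL1 read 3.48 and 3.54 in the wild type and 6.96 and 6.87 in the ccr4 strain (3.41 ± 0.30, adjusted p = 2.69e-07). PCL2 read 3.94 and 4.53 against 7.61 and 7.32 (3.23 ± 0.44, adjusted p = 4.63e-05). Both were among the 15 genes with the greatest rise. RNR1, the large subunit of ribonucleotide reductase, read 5.82 and 5.73 against 8.08 and 7.90 (2.21 ± 0.37, adjusted p = 0.000321). CLB6, an S-phase cyclin, read 2.28 and 2.45 against 4.30 and 4.59 (2.08 ± 0.30, adjusted p = 7.96e-05), all below the lower quartile of the arrays. CLN2, a G1 cyclin picked after its values were seen, read 4.96 and 4.68 against 6.44 and 6.42 (1.61 ± 0.29, adjusted p = 0.000573). These cyclin genes kept their calls without each of the 4 arrays.

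The list of ribonucleotide reductase and DNA damage genes did not move as one. Of 21 measured members, 2 rose and 6 fell (2, 2, 1 and 2 higher and 2, 0, 1 and 3 lower without one array), and the median difference was -0.27. The members that rose were RNR1 and DUN1, a checkpoint kinase that read 4.5 and 5.09 in the wild type and 6.37 and 6.45 in the ccr4 strain (1.62 ± 0.36, adjusted p = 0.00273). The DUN1 call was lost without wild-type replicate 1 (adjusted p = 0.057).

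Cell wall genes were raised in part. Of 39 measured members of the cell wall and SLT2 pathway list, 12 rose and 2 fell, with a median difference of 0.22 (9 higher without any one array). PIR1, a protein bound covalently to wall glucan, read 7.99 and 7.90 in the wild type and 10.73 and 10.48 in the ccr4 strain (2.67 ± 0.32, adjusted p = 1.4e-05). GAS3, of the glucanosyltransferase family, read 6.45 and 6.58 against 9.09 and 9.21 (2.64 ± 0.30, adjusted p = 1.02e-05). CWP1, a wall mannoprotein, read 7.71 and 7.58 against 9.80 and 9.72 (2.11 ± 0.32, adjusted p = 0.000159). All 3 are structural or remodelling proteins of the wall. NCW2, a wall protein as well, read 5.45 and 5.66 against 8.11 and 7.54 (2.27 ± 0.37, adjusted p = 0.000237). SLT2, the kinase after which the pathway is named, picked after its values were seen, read 7.27 and 6.70 against 8.47 and 8.73 (1.62 ± 0.33, adjusted p = 0.00165). EXG1, the major exo-glucanase of the wall, stood outside the list and rose from 7.28 and 6.74 to 10.51 and 10.31 (3.40 ± 0.27, adjusted p = 1.76e-07).

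Genes for separating daughter from mother cells rose in a few cases. Of 13 measured members, 5 rose and 0 fell, with a median difference of 0.61, and 3, 3, 3 and 1 were higher without one array. DSE2, a daughter-cell wall protein, read 8.43 and 8.55 in the wild type and 10.22 and 10.00 in the ccr4 strain (1.62 ± 0.32, adjusted p = 0.00111). SUN4 read 7.46 and 6.90 against 8.57 and 8.45 (1.33 ± 0.31, adjusted p = 0.00407, and 0.0683 without wild-type replicate 2). DSE4, the daughter-specific glucanase, read 5.24 and 4.90 against 5.41 and 5.31, and the difference of 0.29 ± 0.39 did not pass the test (adjusted p = 0.627).

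Pheromone and mating genes, which are normally induced when cells meet a partner of the other mating type, were higher in the ccr4 strain. Of 37 measured members, 15 rose and 0 fell, with a median difference of 0.71. Without one array, 10, 9, 8 and 10 were higher. The list medians were 6.16 and 6.07 in the wild type after depletion and 7.03 and 6.81 in the ccr4 strain.

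FIG1, a membrane protein of calcium uptake and fusion in mating, was the highest gene of the comparison after TRP1. It read 5.27 and 5.19 in the wild type and 9.0 and 9.15 in the ccr4 strain, a difference of 3.84 ± 0.32 (adjusted p = 2.35e-07). PRM3, needed for fusion of the nuclei, read 5.01 and 4.92 against 8.06 and 7.93 (3.02 ± 0.27, adjusted p = 3.41e-07). KAR4, a transcription factor for nuclear fusion genes, read 4.81 and 4.76 against 7.42 and 6.73 (2.29 ± 0.32, adjusted p = 5.68e-05). The nuclear fusion kinesin gene KAR3, which is not a member of the list, read 4.75 and 5.15 against 7.89 and 8.20 (3.10 ± 0.26, adjusted p = 2.37e-07). PRM2, a pheromone-regulated membrane protein, read 5.06 and 5.21 against 7.21 and 7.56 (2.25 ± 0.38, adjusted p = 0.000354). FUS1, a cell fusion protein picked after its values were seen, read 5.95 and 5.80 against 7.99 and 8.02 (2.13 ± 0.33, adjusted p = 0.00018). The groups were separate for every gene in this paragraph, as they were for nearly all called genes.

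FIG2, a wall adhesin of mating cells, read 6.86 and 6.95 in the wild type and 8.91 and 8.49 in the ccr4 strain (1.79 ± 0.51, adjusted p = 0.0139). That call was lost without any one of the 4 arrays (adjusted p from 0.0535 to 0.0998). PRM1, which acts in membrane fusion, read 7.48 and 7.54 against 9.01 and 8.66, and its difference of 1.32 ± 0.55 did not pass the test (adjusted p = 0.0817).

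Of the 7 a-specific genes, expressed in cells of mating type a, 5 did not pass the test between the strains. The a-factor gene MFA1 read 12.56 and 13.15 in the wild type and 12.93 and 12.98 in the ccr4 strain (0.10 ± 0.28, adjusted p = 0.833). The second a-factor gene, MFA2, differed by 0.35 ± 0.27 (adjusted p = 0.37), and STE2, the receptor for alpha-factor, by 0.04 ± 0.28 (adjusted p = 0.933). AGA2, an agglutinin subunit, differed by 0.59 ± 0.35 (adjusted p = 0.219) and ASG7 by 0.40 ± 0.34 (adjusted p = 0.421). The other 2 members passed the test, in opposite directions. STE6, the exporter of a-factor, read 7.36 and 7.03 against 5.22 and 4.85 (-2.16 ± 0.33, adjusted p = 0.000157). BAR1, the protease that degrades alpha-factor, read 9.25 and 9.06 against 10.34 and 10.58 (1.30 ± 0.32, adjusted p = 0.00632), a call lost without ccr4 replicate 2 (adjusted p = 0.0734) or wild-type replicate 2 (0.0568).

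Of the alpha-specific genes, 1 of 4 was called. The minor alpha-factor gene MF(ALPHA)2 read 3.36 and 3.60 in the wild type and 5.59 and 5.70 in the ccr4 strain (2.16 ± 0.27, adjusted p = 1.82e-05). The main alpha-factor gene MF(ALPHA)1 read 4.14 and 4.47 against 4.43 and 4.18, with a difference of 0.00 ± 0.30 (adjusted p = 0.998), and its groups overlapped. STE3, the a-factor receptor, differed by 0.38 ± 0.28 (adjusted p = 0.336) and SAG1, the alpha-agglutinin, by 1.02 ± 0.46 (adjusted p = 0.102). On these 4 arrays MFA1, MFA2 and STE2 read between 8.37 and 13.15, and STE6 read 5.22 and 4.85 in the ccr4 strain. The alpha-cell markers differed among themselves. MF(ALPHA)1 and STE3 read at most 4.47, but MF(ALPHA)2 read 5.59 and 5.70 in the ccr4 strain. The median of the alpha-specific list was 3.75 and 4.04 in the wild type and 5.01 and 4.94 in the ccr4 strain.

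Transcripts for mRNA decay factors were called about as often as those of all genes, 5 of 30 higher and 2 lower, with a median difference of 0.00. Without one array, 4, 1, 2 and 2 were higher and 2, 0, 0 and 1 lower. DHH1, an RNA helicase that activates decapping, read 7.91 and 8.64 in the wild type and 7.03 and 5.79 in the ccr4 strain (-1.86 ± 0.59, adjusted p = 0.0251). Its adjusted p rose to 0.277 on leaving out ccr4 replicate 2, and to 0.0553 and 0.178 on leaving out the wild-type replicates 1 and 2. LSM3 and LSM4 encode subunits of the ring that binds the 3′ end of mRNAs. LSM4 read 4.44 and 4.77 against 6.14 and 6.20 (1.57 ± 0.38, adjusted p = 0.00498), and was lost without ccr4 replicate 2 (0.0503) or wild-type replicate 1 (0.0617). LSM3 read 6.43 and 6.31 against 7.68 and 7.79 (1.36 ± 0.35, adjusted p = 0.00814), and was lost without ccr4 replicate 2 (0.0719) or wild-type replicate 2 (0.0599). EDC3, an enhancer of decapping, read 5.46 and 5.78 against 6.89 and 6.83 (1.24 ± 0.29, adjusted p = 0.00432), and was lost without wild-type replicate 1 (0.0627). Each of the 4 named decay genes therefore depended on at least 1 single array.

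Metabolic lists outside carbon use were mixed. In amino acid biosynthesis 13 of 68 measured members rose and 10 fell, with a median of 0.13. These shares were near those over all genes, of which 15.2% were called higher and 11.8% lower. Without one array, 7, 6, 8 and 7 were higher and 6, 5, 4 and 7 lower. LYS9 and LYS20, of lysine synthesis, were among the higher ones. LYS9 read 5.74 and 5.77 in the wild type and 7.66 and 7.93 in the ccr4 strain (2.04 ± 0.25, adjusted p = 1.75e-05), and LYS20 differed by 2.03 ± 0.31 (adjusted p = 0.000146). SER3, of serine synthesis, read 5.86 and 6.06 against 3.81 and 3.73 (-2.19 ± 0.33, adjusted p = 0.00013). CPA1, a subunit of carbamoyl phosphate synthetase in arginine synthesis, read 10.91 and 10.87 against 8.86 and 7.85 (-2.54 ± 0.51, adjusted p = 0.0015). YOR302W, the short upstream reading frame of CPA1 that attenuates its translation, shares the transcript with it. It read 10.01 and 10.15 against 7.72 and 4.61 (-3.91 ± 1.06, adjusted p = 0.0105), and the call was lost without ccr4 replicate 2 (0.209), wild-type replicate 1 (0.0583) or wild-type replicate 2 (0.0607). Its ccr4 arrays were far apart.

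Iron regulon genes fell in 10 of 29 cases and rose in 1, with a median of -0.35, but 7, 1, 3 and 4 were lower without one array. ENB1, a siderophore transporter, read 8.37 and 8.35 in the wild type and 6.85 and 6.70 in the ccr4 strain (-1.59 ± 0.32, adjusted p = 0.00158). Autophagy genes fell in 7 of 33 cases and rose in 1 (median -0.23; 5, 0, 0 and 3 lower without one array). Peroxisome and beta-oxidation genes fell in 6 and rose in 4 of 39 cases, with 5, 2, 3 and 5 lower and 2, 1, 2 and 2 higher without one array. FOX2, the multifunctional enzyme of beta-oxidation, read 7.95 and 7.55 against 6.25 and 5.92 (-1.66 ± 0.33, adjusted p = 0.00128), and PEX6, a peroxisomal ATPase, differed by -1.45 ± 0.31 (adjusted p = 0.002). The shares called in the peroxisome list and in the next one were near those over all genes (11.8% lower and 15.2% higher). The fatty acid and ergosterol list held 4 higher and 4 lower genes of 31 (1 higher without any one array, and 1, 0, 0 and 2 lower), with the elongase ELO3 at 1.25 ± 0.27 (adjusted p = 0.00219). RME1, the repressor of meiosis, read 8.17 and 8.22 against 6.50 and 6.12 (-1.88 ± 0.34, adjusted p = 0.000675), and the 23 measured genes of meiotic entry held 1 higher and 2 lower genes (1, 0, 0 and 1 higher and 1 lower without one array).

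Hypoxic and anaerobic genes fell in 5 of 17 cases and rose in 0, a larger share of lower calls than over all genes, with a median of -0.82, but 1 was lower without any one array and 2 in a fit of the depletion arrays alone. Proteasome genes rose in 4 of 34 cases (median 0.50; 1, 0, 0 and 1 without one array). The phosphate regulon had 2 higher and 3 lower of 24 (1, 0, 0 and 1 higher and 2, 0, 1 and 1 lower without one array). Glycolysis and fermentation had 2 higher and 1 lower of 23 (0, 0, 1 and 0 higher). PUF and 3′-end binding proteins had 2 higher of 15 (1, 0, 1 and 1 without one array). Flocculation and adhesion had 1 higher of 7 and heat shock chaperones 1 lower of 27, and neither call held without any one array. The 5 measured histone genes had a median difference of 0.25 and a range from -0.78 to 0.91. The glycolysis list had a median difference of -0.16. Over all genes, 15.2% were called higher and 11.8% lower. The share of proteasome genes called higher lay below the first of these. Shares in the lists named after the proteasome were near or below them as well, so these counts do not set the lists apart.

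Several of the genes with the greatest differences belonged to none of the lists. YCL048W-A and YDL218W, both uncharacterised, were next to SIP18 at the low end. YCL048W-A read 11.21 and 11.08 in the wild type and 6.71 and 6.40 in the ccr4 strain (-4.60 ± 0.61, adjusted p = 4.38e-05). YDL218W read 8.32 and 8.30 against 3.99 and 3.59 (-4.52 ± 0.45, adjusted p = 1.29e-06). In the wild type, both were low in exponential phase, at 4.08 and 4.73 and at 3.03 and 3.27. DAK2, a dihydroxyacetone kinase, read 9.74 and 9.59 against 5.82 and 5.45 (-4.03 ± 0.51, adjusted p = 2.3e-05). PAI3, the inhibitor of vacuolar proteinase A, read 7.72 and 7.75 against 4.84 and 4.08 (-3.27 ± 0.37, adjusted p = 9.11e-06). BDH2, a putative dehydrogenase, differed by -3.57 ± 0.55 (adjusted p = 0.000157). AAD10, a putative aryl-alcohol dehydrogenase, differed by -3.21 ± 0.39 (adjusted p = 1.62e-05). The uncharacterised YNL194C and YNL195C differed by -3.39 ± 0.54 and -3.17 ± 0.50. Each of these 8 genes kept its call under every alternative tried.

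At the high end, genes outside the lists included some that act in making ribosomes or whose protein associates with them. BUD22, which acts in small subunit rRNA processing, read 3.57 and 3.46 in the wild type and 6.24 and 6.45 in the ccr4 strain (2.83 ± 0.41, adjusted p = 0.00011). TMA46, a protein associated with ribosomes, read 4.61 and 4.39 against 7.03 and 7.40 (2.71 ± 0.32, adjusted p = 1.35e-05). EFG1, an rRNA processing factor, read 4.71 and 4.85 against 7.85 and 8.39 on the probe set used (3.34 ± 0.62, adjusted p = 0.000772). Its 3 other probe sets disagreed, with differences of 2.97, 1.18 and 0.01. ADE17, of purine synthesis, read 5.67 and 6.46 against 8.58 and 8.63 (2.54 ± 0.29, adjusted p = 1.03e-05).

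**Figure D4:**
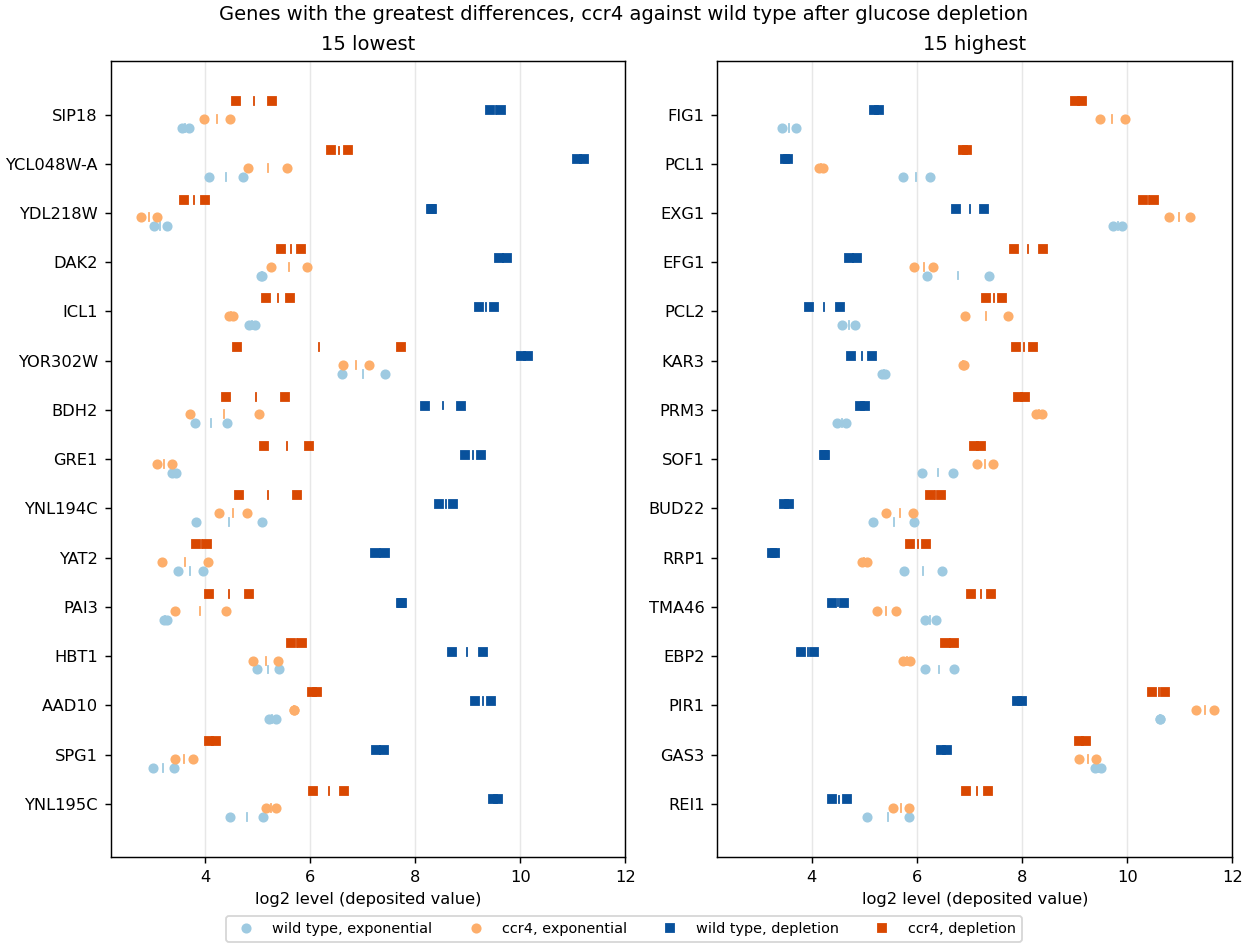
Log2 levels (x axis) on the 8 wild-type and ccr4 arrays of the 15 genes with the lowest and the 15 with the highest difference after glucose depletion, leaving out CCR4 and the marker genes. Points are arrays and short vertical lines are group means. For SIP18 the ccr4 arrays after depletion read 5.28 and 4.58 against 9.64 and 9.43 in the wild type, and FIG1 read 9.0 and 9.15 against 5.27 and 5.19.

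Whether the ccr4 strain differed from the wild type alike in the presence and absence of glucose was tested as the difference of the strain effects in the 2 conditions. The parts of CCR4 and TRP1 in these effects cannot be told apart. In exponential phase, 383 genes were called between ccr4 and the wild type (6.77%), 232 higher (4.1%) and 151 lower (2.67%). The effect after depletion minus the effect in exponential phase differed from 0 in 1095 genes (19.4%), 655 upward (11.6%) and 440 downward (7.78%). The median over all genes was 0.14. Centring each array on its median moved it by -0.22 and the split to 473 upward and 659 downward (41.8% upward in place of 59.8%). Depending on the array left out, the count of 1095 fell to 434 to 970, and the lowest was without ccr4 replicate 2 after depletion.

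Ribosome biogenesis genes gave 79 of the 655 upward differences. Of 122 members, 79 moved up and 0 down, with a median of 1.91 beside the 0.14 of all genes, and the list median in exponential phase alone was -0.40. That count was 38 without ccr4 replicate 2, 48 and 52 without wild-type replicates 1 and 2 after depletion, and 42 and 31 without ccr4 and wild-type replicate 1 in exponential phase. The 2 exponential wild-type arrays stood apart for this list, at 6.91 and 6.13. RRP1 had an effect of 2.76 after depletion and -1.12 in exponential phase (difference 3.88 ± 0.66, adjusted p = 0.000954), and EBP2 had 2.70 and -0.62 (3.32 ± 0.59, adjusted p = 0.00128). For TMA46 the effects were 2.71 and -0.84 (difference 3.55 ± 0.45, adjusted p = 0.000101).

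Of the G1/S genes, 20 moved up and 0 down (median 1.16), with 11 to 16 up when one of the 8 arrays was left out, and 11, 13 and 12 without ccr4 replicate 2 or wild-type replicates 1 and 2 after depletion and 12 without wild-type replicate 1 in exponential phase. PCL1 turned its direction: it was lower in the ccr4 strain in exponential phase (5.73 and 6.24 in the wild type against 4.22 and 4.14, -1.81, adjusted p = 0.000784) and higher after depletion, a difference of effects of 5.21 ± 0.42 (adjusted p = 3.4e-07). PCL2 was higher in both conditions, by 2.62 and 3.23, and its difference of effects of 0.61 ± 0.62 did not pass the test (adjusted p = 0.509). CLN2 had effects of -0.86 and 1.61 (difference 2.46 ± 0.41, adjusted p = 0.000822).

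The carbon and stress lists moved down. Of 24 genes of gluconeogenesis, the glyoxylate cycle and the carnitine shuttle, 18 moved down (13 to 17 without one array) with a median of -2.51. In exponential phase the same list had 3 members higher and 0 lower. Of 42 general stress genes, 22 moved down with a median of -1.82, and 14 did without ccr4 replicate 2 after depletion, 12 without wild-type replicate 1 after depletion and 12 without wild-type replicate 1 in exponential phase. SIP18 differed by -5.21 ± 0.43 (adjusted p = 3.4e-07) and ICL1 by -3.58 ± 0.72 (adjusted p = 0.00277). SPG4, HXT5 and FRE7, a ferric or cupric reductase, went from higher in exponential phase to lower after depletion. SPG4 had effects of 2.02 and -2.83 (difference -4.85 ± 0.82, adjusted p = 0.000954). HXT5 had 1.27 and -1.86 (-3.13 ± 0.43, adjusted p = 0.000194), and FRE7 had 2.19 and -2.30 (-4.49 ± 0.52, adjusted p = 3.03e-05). ADE17 turned the other way, from -1.13 to 2.54 (3.67 ± 0.41, adjusted p = 3.03e-05).

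Mating genes were higher in the ccr4 strain in both conditions, with a smaller difference after depletion for some of them. In exponential phase 18 of 37 members were higher, and the difference of effects was downward in 10 and upward in 0, with a median of -0.47 (4 to 7 downward without one array, and 4 without either wild-type replicate after depletion). FIG1 had effects of 6.15 in exponential phase and 3.84 after depletion, a difference of -2.31 ± 0.46 (adjusted p = 0.0027). Its wild-type level was 3.69 and 3.44 in exponential phase and 5.27 and 5.19 after depletion, while the ccr4 level was 9.49 and 9.95 and then 9.0 and 9.15. ASG7 had effects of 4.07 and 0.40 (-3.67 ± 0.48, adjusted p = 0.000101), and its wild-type level went from 5.86 and 5.92 to 8.08 and 7.72. PRM3 had effects of 3.76 and 3.02, and their difference of -0.74 ± 0.38 did not pass the test (adjusted p = 0.175). KAR3, a mating gene that is not a member of the list, went the other way, with effects of 1.52 and 3.10 (1.58 ± 0.37, adjusted p = 0.00719). Its call was lost without ccr4 replicate 2 after depletion.

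The ccr4 strain was also compared directly with the not2 strain after depletion, with the same ccr4 arrays and without the wild-type ones. Not2, encoded by CDC36, belongs to the Not module, and CDC36 read 3.81 and 3.24 in the not2 arrays against 8.51 and 8.51 in the ccr4 arrays. TRP1 separated these strains too, at 2.61 and 2.15 in not2, and its part in the differences cannot be told apart. Between these strains 2518 genes were called (44.5%), 1365 higher in ccr4 (24.1%) and 1153 lower (20.4%), with a median over all genes of 0.05. Of the a-specific genes, 6 of 7 were higher in ccr4 and 0 lower, also without each of the 4 arrays. MFA1 read 8.08 and 8.22 in not2 and 12.93 and 12.98 in ccr4, a difference of 4.81 ± 0.28 (adjusted p = 4.32e-10). MFA2 (4.29 ± 0.27), BAR1 (5.03 ± 0.32) and STE2 (3.5 ± 0.28) were higher in ccr4 as well. FIG1 read 3.98 and 3.43 in not2, and ccr4 was higher by 5.37 ± 0.32 (adjusted p = 5.28e-10). Over the pheromone and mating list, 24 of 37 were higher in ccr4 and 3 lower.

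Ribosome biogenesis genes were higher in ccr4 than in not2 in 108 of 122 cases and lower in 0 (median 1.84), and cytosolic ribosomal proteins in 61 of 81 and lower in 1 (median 1.25; 40 higher without not2 replicate 2). General stress genes were lower in 27 of 42 cases and higher in 0. SPG1 read 10.10 and 9.68 in not2 and 4.21 and 4.07 in ccr4 (-5.75 ± 0.29, adjusted p = 7.99e-11). SPG4 read 12.30 and 12.37 in not2 (-5.05 ± 0.58, adjusted p = 1.45e-06), and YNL194C differed by -5.23 ± 0.54 (adjusted p = 4.84e-07). SIP18 read 10.22 and 9.95 in not2 and differed by -5.15 ± 0.31 (adjusted p = 4.81e-10). The lowest gene was YNR071C, at 10.77 and 10.90 in not2 against 4.82 and 3.90 in ccr4 (-6.47 ± 0.46, adjusted p = 3.67e-09). Genes of daughter-cell separation were lower in ccr4 in 8 of 13 cases and higher in 0. DSE4 read 9.85 and 10.11 in not2 against 5.41 and 5.31 in ccr4 (-4.63 ± 0.39, adjusted p = 4.08e-08).

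The caf1 strain lacks the other deadenylase and had 1 array after depletion, which was assumed to vary like the other groups. POP2, the gene of Caf1, read 2.69 there, and TRP1 read 8.89, above both ccr4 arrays. Between ccr4 and caf1, 1080 genes were called (19.1%), 452 higher in ccr4 (7.99%) and 628 lower (11.1%), with a median over all genes of 0.01. Without ccr4 replicate 1 or 2 the count was 350 or 269. The count was 487 in a fit of the depletion arrays alone and 3486 in one of the groups compared alone, and strain and single-array effects cannot be told apart in the caf1 array.

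Genes for gluconeogenesis, the glyoxylate cycle and the carnitine shuttle were lower in ccr4 than in caf1 in 14 of 24 cases and higher in 0 (median -1.40; 9 and 6 without ccr4 replicate 1 or 2). IDP2 read 9.80 in caf1 and 5.99 and 5.86 in ccr4 (-3.87 ± 0.53, adjusted p = 0.000178). ICL1 read 7.79 in caf1 and differed by -2.40 ± 0.62 (adjusted p = 0.0139, and 0.0816 without ccr4 replicate 2). General stress genes were lower in 11 of 42 cases (10 and 6), with SPG4 at 11.13 in caf1 (-3.84 ± 0.71, adjusted p = 0.00254). Genes of daughter-cell separation were lower in 6 of 13 cases (4 and 4), and DSE4 read 8.98 in caf1 (-3.62 ± 0.48, adjusted p = 0.000119). BDH2 read 8.50 in caf1 (-3.54 ± 0.67, adjusted p = 0.00272) and STL1, a glycerol transporter, read 7.49 there against 4.10 and 3.74 in ccr4 (-3.57 ± 0.57, adjusted p = 0.000994).

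Ribosome biogenesis genes were higher in ccr4 than in caf1 in 29 of 122 cases (median 0.97), but in 9 and 2 without ccr4 replicate 1 or 2. Mating genes were higher in 15 of 37 cases (12 and 13) and a-specific genes in 6 of 7 (5 and 5). FIG1 read 4.39 in caf1 and was higher in ccr4 by 4.68 ± 0.40 (adjusted p = 5.13e-07). PRM1 read 4.73 in caf1 (4.10 ± 0.68, adjusted p = 0.00117), PRM2 read 3.42 (3.97 ± 0.47, adjusted p = 3.09e-05) and FIG2 read 4.88 (3.82 ± 0.62, adjusted p = 0.00112). Each of these 4 mating genes kept its call without either ccr4 array.

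Set beside the wild type, the strains gave the following list medians, which share the wild-type depletion arrays and are therefore given side by side only. Ribosome biogenesis stood at 1.45 in ccr4, 0.52 in caf1 and -0.41 in not2. Gluconeogenesis, the glyoxylate cycle and the carnitine shuttle stood at -1.78 in ccr4, -0.12 in caf1 and -0.40 in not2. The a-specific list stood at 0.35, -1.44 and -3.72 and daughter-cell separation at 0.61, 2.2 and 2.38 in the same order. General stress genes stood at -1.61, -0.39 and 0.16. In not4 these lists stood at 0.2, -0.76, -1.05, 2.42 and -0.28, in the order given. Other lists set ccr4 less apart. In ccr4, caf1, not2 and not4, G1/S genes stood at 0.89, 0.52, 0.35 and 0.85. Mitochondrial ribosomal proteins stood at 1.06, 0.74, 0.58 and 0.04, and the respiratory chain and ATP synthase at -0.53, -0.22, -0.43 and -0.53.

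**Figure D5:**
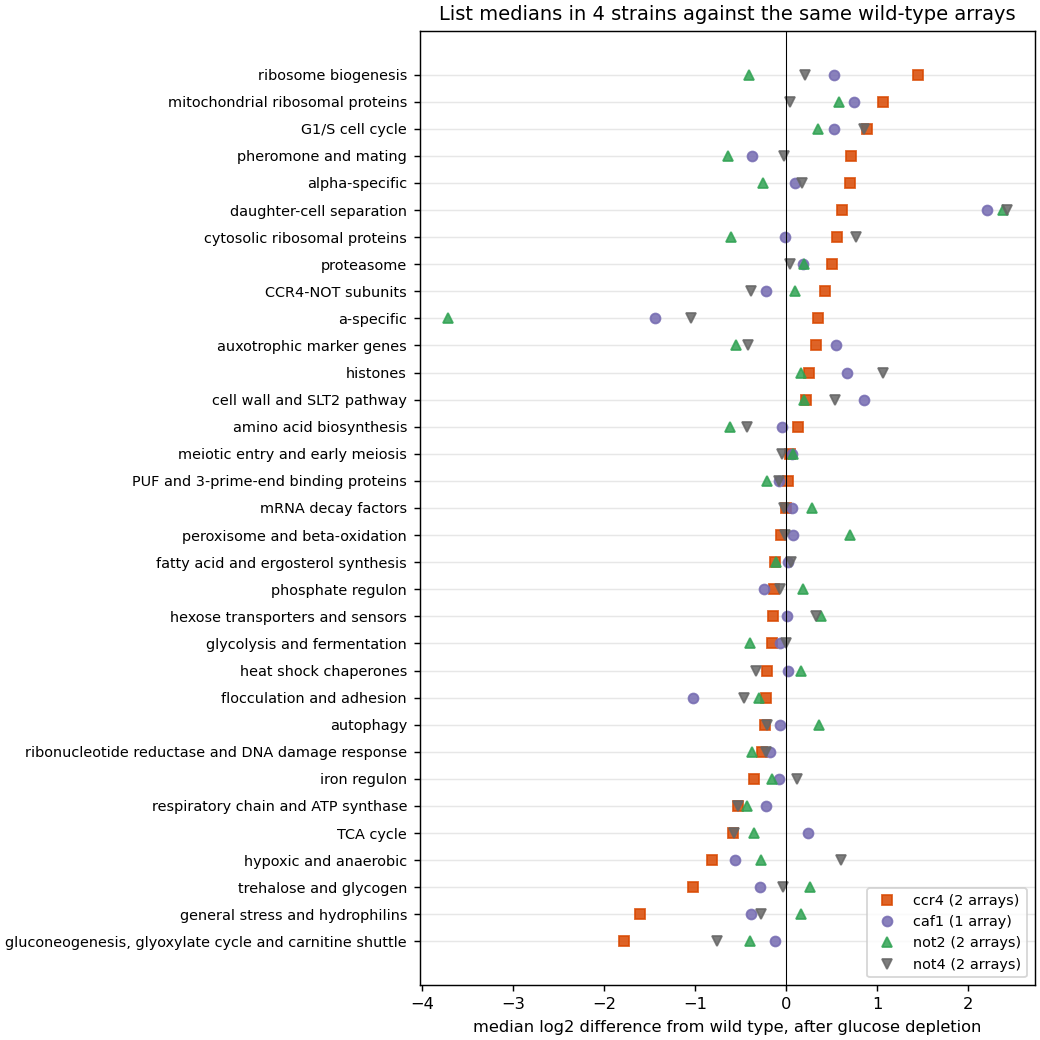
Median log2 difference from the wild type after glucose depletion (x axis) of each gene list in the ccr4, caf1, not2 and not4 strains. Points are strains, measured against the same 2 wild-type arrays, and caf1 has 1 array. Ribosome biogenesis is at 1.45 in ccr4 and between -0.41 and 0.52 in the other strains, and the a-specific list is at 0.35 in ccr4 and between -3.72 and -1.05 in the others.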

How the data were processed

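Levels came from a table in which the authors deposited log2 values for every probe set on every array. The base was inferred from the range of the values (1.36 to 13.94, 0 missing), and the software and normalization behind them were not given in the sources used here. RNA was extracted with acid phenol and labelled with biotin by the Affymetrix procedure, per the labels' protocols. Array medians lay between 5.20 and 5.37, and no further normalization was applied. Another base would scale all differences alike. The number of arrays limits the precision.

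Gene names came from the platform annotation, and the 6504 probe sets with a single gene symbol were kept. Where a gene had several (315 genes), the one with the highest mean was taken, and 295 genes lie on less specific probe sets. Group means of the 14 groups were estimated from the 25 arrays together in R 4.3.3 with limma 3.58.1 (lmFit, contrasts and eBayes with a trend on intensity), which gave 11 residual degrees of freedom and a prior of 9.03. The code was tested on simulated data. Python 3.11.15 served for tables (pandas 2.3.3 and numpy 2.4.6) and for figures (matplotlib 3.10.9). Of 1106 members of 33 lists, 1013 were measured.

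The members, the lists and the tests were chosen with earlier results of these data known. The naming rule took the subunit genes and the neighbours of CCR4, the 15 highest and 15 lowest called genes, up to 4 called members with the greatest change per list, all mating-type and marker genes, and the 5 highest and 5 lowest genes of each other comparison. The text names 119 genes, 10 of them list members outside that rule, and leaves out most of the 55 called genes of the rule, out of 125, that lost the call without 1 array. Alternatives were another scaling, a filter on dim probe sets, the choice of probe set, the arrays in the fit, the trend, the replicate number as a block and each array left out. The R64 reference served for names and neighbours only.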

Additional observations from a re-analysis of the deposited data

Results flagged for a closer look

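The effect of the ccr4 strain against the wild type differed between the growth conditions, by the test of the difference itself, in 1095 genes over the whole array. Of the 119 genes named above, 73 were among them, 32 upward and 41 downward after depletion. Values below are the log2 effect after depletion minus the effect in exponential phase. Among genes of carbon use and respiration, the difference was -3.58 for ICL1, -2.76 for MLS1, -3.29 for YAT2, -3.20 for CIT2, -2.63 for IDP2, -3.72 for PCK1 and -2.45 for FBP1. In the same group it was -3.29 for JEN1, -1.85 for CAT8, -2.07 for ADR1, -3.75 for NDE2, -1.43 for KGD1, -3.13 for HXT5, -2.48 for PYK2 and -1.83 for FOX2. Among stress genes, it was -5.21 for SIP18, -3.37 for GRE1, -3.20 for HBT1, -3.58 for SPG1, -4.85 for SPG4 and -2.67 for CTT1. Among mating genes, the difference was -2.31 for FIG1, -1.90 for PRM2, 1.58 for KAR3, -2.81 for PRM1 and -3.51 for FIG2. In the same group it was -1.61 for MFA1, -2.28 for STE6, -2.10 for AGA2, -3.67 for ASG7 and -2.57 for SAG1. Among genes for making ribosomes, for their proteins or for a protein associated with them, the difference was 2.01 for SOF1, 3.88 for RRP1 and 3.32 for EBP2. It was 2.36 for REI1, 4.0 for EFG1 and 2.71 for BUD22. In the same group it was 3.55 for TMA46, 2.44 for RPL9A, 2.71 for RPS26B, 2.31 for RPL24A, 2.30 for RPS9B, 1.89 for MRPL27 and 1.82 for MRPL7. Among genes of the cell cycle and the cell wall, the difference was 5.21 for PCL1, 2.46 for CLN2, 1.99 for RNR1, 2.21 for CLB6 and 2.13 for DUN1. In the same group it was 1.82 for PIR1, 2.83 for GAS3, 1.67 for NCW2, 1.73 for CWP1, 2.22 for EXG1 and 1.73 for SLT2. Among genes of the Not module and of mRNA decay, it was 1.65 for NOT5, 2.64 for LSM4, 1.91 for LSM3 and 1.91 for EDC3. Among genes of amino acid and purine synthesis and metal uptake, it was -2.09 for SER3, 2.16 for LYS9, 1.68 for LYS20, 3.67 for ADE17, -1.35 for ENB1 and -4.49 for FRE7. Among the other genes with low readings after depletion, it was -5.38 for YCL048W-A, -4.29 for YDL218W, -4.56 for DAK2, -3.83 for BDH2, -3.48 for YNL194C, -3.95 for PAI3, -3.63 for AAD10 and -3.63 for YNL195C. Of the 73 genes, 50 were called without each of the 8 arrays in turn. The other 23 lost the call without at least 1 of them and were NOT5, KGD1, SOF1, REI1, RPL9A, MRPL7, RNR1, NCW2, CWP1, PRM2, KAR3, PRM1, MFA1, SAG1, LSM3, FOX2, LYS20, ENB1, FBP1, CAT8, ADR1, CTT1 and SLT2.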

How the results depend on the processing

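The count of genes called between ccr4 and the wild type after depletion stayed within 1.5 times of 1530 under quantile normalization, median centring, the dim filter, both other choices of probe set, no trend and the depletion arrays alone. It was 3215 with only the groups compared, which leaves few degrees of freedom for the spread, and 512 to 779 with one array left out. The difference of effects between the conditions gave 2234 genes with only the groups compared and 434 to 970 with one array left out, against 1095. The comparison of ccr4 with not2 ranged from 1682 to 2644 with one array left out, against 2518. That of ccr4 with caf1 gave 487 genes with the depletion arrays alone, 3486 with only the groups compared and 269 to 350 with one array left out, against 1080. Fewer arrays enter each of these fits.

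Replicate numbers are given in the titles but did not pair the samples. The deviations of ccr4 and wild-type arrays correlated at 0.027 after depletion, and of 55 pairs of groups 14 were over 0.1, in a range from -0.552 to 0.473. With the replicate number as a block, 1426, 1014 and 2452 genes were called in the first 3 comparisons. The comparison with caf1 could not be fitted with the block, because the caf1 array has no number.

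The naming rule gave 148 genes, 125 of them called after depletion. On leaving out 1 array 55 of the 125 lost the call, and 70 kept it under each of the 13 alternatives. The text leaves out most of those 55 and adds list members picked later, so 77 of the 96 called genes it names kept the call, a share raised by that choice. The sign turned only for uncalled genes near 0. With each array centred on its median, MET17 read -0.11, MFA1 -0.02, STE2 -0.08 and MF(ALPHA)1 -0.12, and the last read -0.13 after quantile normalization. With one array left out, MET17 ranged from -0.13 to 0.16, MFA1 from -0.19 to 0.39, STE2 from -0.20 to 0.29 and MF(ALPHA)1 from -0.16 to 0.17, with -0.12 without ccr4 replicate 1.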
